A study of Mus musculus with 8 samples.

Results

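The serpins are a family of protease inhibitors, and 44 serpin genes were measured among the 15123 genes that the array annotation names. They were chosen by name: every probe whose annotated symbol begins with Serpin was taken, 52 probes in all, and probes of the same gene were averaged. Of the 44 genes, 13 belong to clade A, the liver type that includes Serpina10, 23 belong to the intracellular clade B, and 8 to clades C, D and F to I. The RefSeq gene table of assembly GRCm38.p6 lists 69 symbols that begin with Serpin, and the ones without a probe here were not analysed.

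A serpin works as bait. It offers a flexible loop to a protease, and when the protease cuts it the serpin folds over and traps the enzyme in a covalent complex. Clade A and several smaller clades supply the inhibitors of blood plasma, made mainly in liver, where they hold clotting, fibrinolysis, complement and leukocyte proteases in check. Clade B proteins stay mostly inside cells, and a few members of the family have given up inhibition to carry hormones or to fold collagen. In humans the gut epithelium is also a known source of alpha-1-antitrypsin, the product of the Serpina1 genes.

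RNA came from the ileum of mouse embryos, aged E18.5 by the sample labels and up to E19 by the series text. Homozygous LGR5-null (LGR5-/-) embryos were set against wild-type (LGR5+/+) embryos, with no treatment. LGR5 binds R-spondins at the cell surface and is known as a marker of stem cells in the adult gut. Their parents were heterozygous, and 3 couples supplied the 4 pairs, so some pairs share parents. The sources used here do not say how the null allele was made or which strain carried it. Each pair was hybridised on 2 arrays of 70-base oligonucleotides with the dyes exchanged, 8 arrays in all. Values below are log2 ratios of null over wild type, the 2 arrays of a pair averaged, and the pair is the replicate (n = 4).

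Lgr5, the targeted gene, had ratios of -1.61, -0.92, -1.92 and -1.93 in pairs 1 to 4. The labels put the null sample in channel 1 of every array but do not state the numerator of the ratio, and Lgr5 was below 0 on all 8 arrays, so null over wild type is the likely direction of every ratio here. The base of the logarithm is likewise taken to be 2. A ratio of 2 ileum RNAs holds no level, so neither the tissue label nor the abundance of a serpin could be checked. In RNA of a mixed tissue, fewer cells of a type and less RNA per cell cannot be told apart.

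Null and wild-type ileum were told apart by 0 of the 44 serpins (limma, adjusted p under 0.05 over 15123 genes), and the share of all genes called was 0% as well. The same test did not call Lgr5, the targeted gene, at a mean of -1.59 ± 0.47 (SD, n = 4; limma adjusted p = 0.656). A lack of calls here and below therefore does not show that genes were unchanged. At an unadjusted p under 0.05 there were 4 serpins. Serpina10, Serpina6 and Serpina3n were higher in null ileum, where 2.64% of all genes were, and Serping1 was lower, where 3.68% were. Ratios above 0 in all 4 pairs were found for 6 serpins, 5 of them among the 13 of clade A, against 7.31% of all genes. Ratios below 0 in all 4 pairs were found for 5 serpins, none of them of clade A, against 8.28% of all genes. An ordinary 1-sample test also called 0 serpins, and a fit that took the 8 arrays singly, with a random block for each pair, called 1, Serpina10.

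Serpina10 is the protein Z-dependent inhibitor, which blocks activated factor X of the clotting cascade with protein Z as its cofactor. Its ratios were 1.06 and 1.09 on the arrays of pair 1 and 0.398 and 0.402 on those of pair 2. Pair 3 read 0.435 and 0.70, and pair 4 read 0.492 and 0.442. All 8 arrays lay above 0, pair 1 was the highest, and the other pairs lay close together. The mean was 0.63 ± 0.31 (SD, n = 4), or 1.54-fold, with a limma adjusted p of 0.691 over all genes and an exact sign-flip p of 0.125, the smallest that 4 pairs allow. In the random-block fit the limma adjusted p was 0.0374, where 0.39% of all genes were called. That fit took the same correlation, 0.429, between the arrays of a pair for every gene. Arrays of the same RNA thus counted as partly independent, whatever their correlation for Serpina10. By mean ratio it ranked 34 of all named genes, highest first. Proz, which encodes the cofactor protein Z, had a mean of 0.037 ± 0.098 and was at 0.15, -0.083, 0.076 and 0.011 in pairs 1 to 4. F10, which encodes the target factor X, stood at 0.78 in pair 1 and 1.08 in pair 3, and at -0.020 and 0.11 in pairs 2 and 4.

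The liver genes did not rank the pairs as Serpina10 did. A list of 16 hepatocyte genes without serpins, Alb and the fibrinogen genes among them, had median ratios of -0.094, -0.16, 1.99 and 0.40 in pairs 1 to 4. All 16 members lay above 0 in pair 3, between 0.92 and 2.42, and 4 and 2 of them did so in pairs 1 and 2. Serpina10 was 1.17 above that median in pair 1 and 0.56 above it in pair 2, whereas in pair 3 the same difference was -1.42.

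Serpina6 and Serpina7 carry hormones instead of inhibiting proteases. Serpina6, the corticosteroid-binding globulin, was at 0.79, 0.12, 1.71 and 0.84 from pair 1 to pair 4, above 0 on all 8 arrays. Pair 3 was the highest and pair 2 close to 0. The mean of 0.87 ± 0.65 (SD, n = 4), or 1.82-fold, was the highest of any serpin (limma adjusted p = 0.727). Serpina7, the thyroxine-binding globulin and the single clade A member on the X chromosome, was at -0.34, -0.18, 0.25 and 0.15, with pairs 1 and 2 below 0 and pairs 3 and 4 above it. Its 2 probes had means of -0.032 ± 0.25 and -0.022 ± 0.32 and the same sign as each other in every pair.

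**Figure D1:**
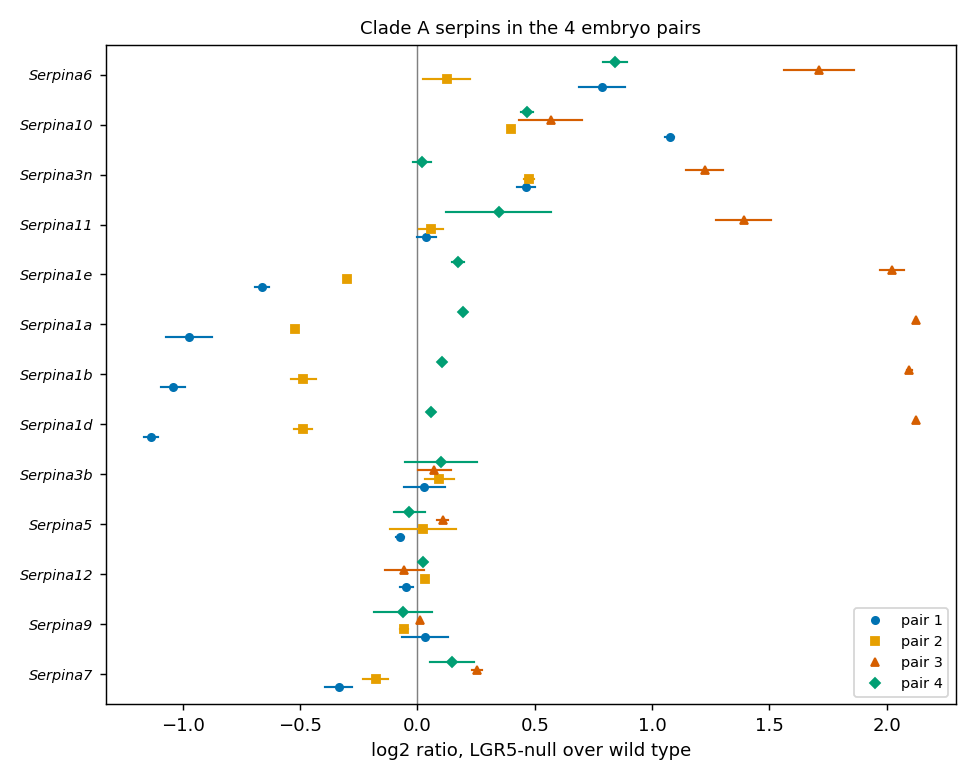
Log2 ratios of the 13 clade A serpins (x axis, null over wild type) in each embryo pair. A marker is the mean of the 2 arrays of a pair and the line through it joins those 2 arrays. Serpina10 lies right of 0 in all 4 pairs, while the 4 Serpina1 copies run from -1.13 in pair 1 to 2.12 in pair 3.

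The Serpina1 copies encode alpha-1-antitrypsin, the main plasma inhibitor of neutrophil elastase, and were measured as Serpina1a, Serpina1b, Serpina1d and Serpina1e. The copies lay between -1.13 and -0.66 in pair 1, between -0.52 and -0.30 in pair 2, between 2.02 and 2.12 in pair 3 and between 0.057 and 0.20 in pair 4. Within a pair they moved as a block, and between pairs they covered the widest range of any serpin, 3.26 for Serpina1d. Their 6 probes had the same sign on both arrays of every pair. Since the direction differed between pairs, the means were small beside the spread, as for Serpina1a at 0.21 ± 1.37 (SD, n = 4; limma adjusted p = 0.944). Without pair 3 the Serpina1a mean was -0.43. Serpina1e was the least low of the copies in pairs 1 and 2, at -0.66 and -0.30. The copies are close relatives and were not read as independent members, and how far their 70-base probes tell them apart was not tested.

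The promoters of the 4 copies are printed because these members had ratios of the same sign in each pair and the widest ranges between pairs. They come from RefSeq, build GRCm38.p6, minus strand, at chr12:103863570-103863869 for Serpina1a, chr12:103738140-103738439 for Serpina1b, chr12:103773584-103773883 for Serpina1d and chr12:103956848-103957147 for Serpina1e. Each runs 5′ to 3′ from 250 bases before the transcription start to 50 bases after it. Capitals mark GTTAAT, a short motif of HNF1, a transcription factor of liver, gut and pancreas.
Serpina1a: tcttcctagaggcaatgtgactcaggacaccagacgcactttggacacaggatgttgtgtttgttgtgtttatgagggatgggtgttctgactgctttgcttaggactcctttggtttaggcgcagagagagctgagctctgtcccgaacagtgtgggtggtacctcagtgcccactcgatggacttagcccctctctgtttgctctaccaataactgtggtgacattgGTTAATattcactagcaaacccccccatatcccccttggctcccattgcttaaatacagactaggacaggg
Serpina1b: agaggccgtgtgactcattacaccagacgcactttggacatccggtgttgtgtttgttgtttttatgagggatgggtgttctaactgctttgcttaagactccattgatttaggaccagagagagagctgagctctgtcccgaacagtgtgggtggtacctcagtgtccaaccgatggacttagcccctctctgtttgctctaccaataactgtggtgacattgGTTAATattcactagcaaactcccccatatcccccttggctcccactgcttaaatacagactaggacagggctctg
Serpina1d: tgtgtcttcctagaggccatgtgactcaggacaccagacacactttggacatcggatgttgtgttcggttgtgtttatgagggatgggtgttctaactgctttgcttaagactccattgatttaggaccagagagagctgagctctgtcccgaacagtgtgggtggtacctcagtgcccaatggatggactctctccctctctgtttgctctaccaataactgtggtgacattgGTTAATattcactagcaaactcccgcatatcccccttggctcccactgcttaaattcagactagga
Serpina1e: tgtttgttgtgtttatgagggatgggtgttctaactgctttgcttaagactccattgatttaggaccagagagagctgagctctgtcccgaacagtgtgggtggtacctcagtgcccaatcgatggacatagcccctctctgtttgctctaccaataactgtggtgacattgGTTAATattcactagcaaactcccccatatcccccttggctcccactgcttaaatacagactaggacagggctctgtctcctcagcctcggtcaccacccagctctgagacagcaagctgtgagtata

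The motif began at -21 in Serpina1a, -26 in Serpina1b, -16 in Serpina1d and -78 in Serpina1e, counted with -1 as the last base before the annotated start. Serpina1a, Serpina1b and Serpina1d were 86.9% to 89.8% identical to each other over these windows, and Serpina1e was 63.9% to 69.3% identical to them, in alignments with gaps counted as differences. The Serpina1e window is offset along the shared sequence, as its motif position shows, so the last figures understate the likeness of the copies. Promoters were found for 38 of the 44 serpins, 45 promoters in all. A gene was counted if any of its promoters held the motif, whereas the share of all promoters counts each promoter singly. On either strand GTTAAT was present in 5 of the 10 clade A genes with a promoter, the 4 copies and Serpina7, in 2 of 21 of clade B, in 1 of the 7 others and in 7.1% of the 32851 promoters of the table. The C/EBP motif TTGCNNAA was present in 8 of 10 clade A genes, 3 of 21 clade B genes, 1 of the 7 others and 10.8% of all promoters. The HNF4 motif CAAAGTCCA was in none of the 38 and in 0.475% of all promoters, and TATAAA was in 2 of 10 clade A genes, 8 of 21 clade B genes, 1 of the 7 others and 13.6% of all promoters. The GTTAAT and TTGCNNAA matches were not read as binding sites, and the related copies are not separate examples.

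In pairs 1, 2 and 4 each Serpina1 copy lay below the median of the liver genes, and in pair 3 each lay above it. Alb, the albumin gene, was at -0.48 and -0.79 in pairs 1 and 2 and at 1.69 and 0.52 in pairs 3 and 4. The difference of Serpina1a from the liver median was -0.88, -0.36, 0.13 and -0.21 from pair 1 to pair 4. The part of liver RNA in these serpin values was not tested.

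Serpina3n, an acute phase inhibitor of leukocyte proteases, was at 0.46, 0.48, 1.22 and 0.019 in pairs 1 to 4. Pairs 1 and 2 agreed closely, pair 3 was the highest and pair 4 near 0. The mean was 0.55 ± 0.50 (SD, n = 4; limma adjusted p = 0.762). Serpina11 was at 0.038, 0.058, 1.39 and 0.35, above 0 in all 4 pairs but with most of its mean of 0.46 ± 0.64 from pair 3. Serpina3b, at 0.074 ± 0.032, was the fifth clade A member above 0 in all 4 pairs, and its 2 arrays differed in sign in 2 of the pairs. Serpina5, the protein C inhibitor, Serpina9 and Serpina12, an adipokine also called vaspin, stayed between -0.073 and 0.11 in every pair. They had means of 0.0059 ± 0.079, -0.018 ± 0.047 and -0.012 ± 0.047.

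The clade A median was -0.048, 0.023, 1.22 and 0.11 in pairs 1 to 4, beside medians of -0.019, -0.036, 0.019 and -0.020 for the 31 serpins of the other clades. Those 31 include the 23 of clade B. Without the 4 Serpina1 copies, the 9 remaining clade A genes had medians of 0.034, 0.058, 0.25 and 0.10. The clade A median of pair 3 thus rested largely on the copies. In pair 3 the median was 0.65 for the 8 serpins of clades C, D and F to I and 1.44 for the 4 of clotting and complement, so the high values of pair 3 were not particular to clade A. Over the 4 pairs the median mean ratio was 0.17 for clade A and -0.0016 for the others, beside 4.17e-05 for all named genes. Without pair 3 the clade A value was -0.027, and without the Serpina1 copies it was 0.074 over the 4 pairs. In pair 3, 13 serpins exceeded 0.5, of which 8 were of clade A, where 2.48% of all genes did. The others were Serpinc1, Serpind1, Serpinf1, Serpinf2 and Serpinb11. In pair 1, 2 serpins exceeded 0.5, Serpina10 and Serpina6, where 2.28% of all genes did. In that pair 5 serpins lay below -0.5, the 4 Serpina1 copies and Serpini1, where 2.93% of all genes did. In pair 2, 0 serpins exceeded 0.5 and 1, Serpina1a, lay below -0.5, where 0.278% and 0.635% of all genes did. In pair 4, 2 serpins exceeded 0.5, Serpina6 and Serpinc1, where 0.575% of all genes did. Below -0.5 there were 0 serpins in pairs 3 and 4, where 1.77% and 1.14% of all genes lay.

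The remaining clades hold the plasma inhibitors of clotting and complement. Serpinc1, antithrombin, which blocks thrombin and activated factor X, was at 0.26, -0.065, 2.00 and 0.55 in pairs 1 to 4. The mean was 0.68 ± 0.91 (SD, n = 4). Serpind1, heparin cofactor II, which blocks thrombin, was at 0.0040, 0.080, 1.40 and 0.27. It was the single serpin outside clade A above 0 in all 4 pairs, and pair 1 was above 0 by less than its 2 arrays differed. Serpinf2, the plasmin inhibitor alpha-2-antiplasmin, was at -0.26, 0.013, 1.48 and 0.23. All of them were highest in pair 3 and next in pair 4, as was the liver list. The limma adjusted p was 0.815 for Serpinc1, 0.819 for Serpind1 and 0.825 for Serpinf2. Without pair 3 the Serpinf2 mean was -0.0044.

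Serping1 encodes the C1 inhibitor, which blocks the first proteases of complement and plasma kallikrein, and it departed from Serpinc1, Serpind1 and Serpinf2. It was at -0.18, -0.47, -0.13 and -0.46 in pairs 1 to 4, below 0 on all 8 arrays, which ran from -0.53 to -0.0080. Pair 3, where the liver genes were highest, was the nearest to 0 and still below it. The mean was -0.31 ± 0.18 (SD, n = 4), or 0.806-fold, with a limma adjusted p of 0.727 and the smallest exact sign-flip p that 4 pairs allow, 0.125. C1ra, a complement protease it inhibits, was at -0.0098, -0.13, 0.13 and -0.25. Lists of 10 fibroblast and 10 endothelial genes also had medians below 0 in every pair. From pair 1 to pair 4 these were -0.32, -0.17, -0.14 and -0.29 for fibroblast and -0.099, -0.21, -0.14 and -0.14 for endothelial genes. The part of fibroblast and endothelial RNA in the Serping1 values was not tested.

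**Figure D2:**
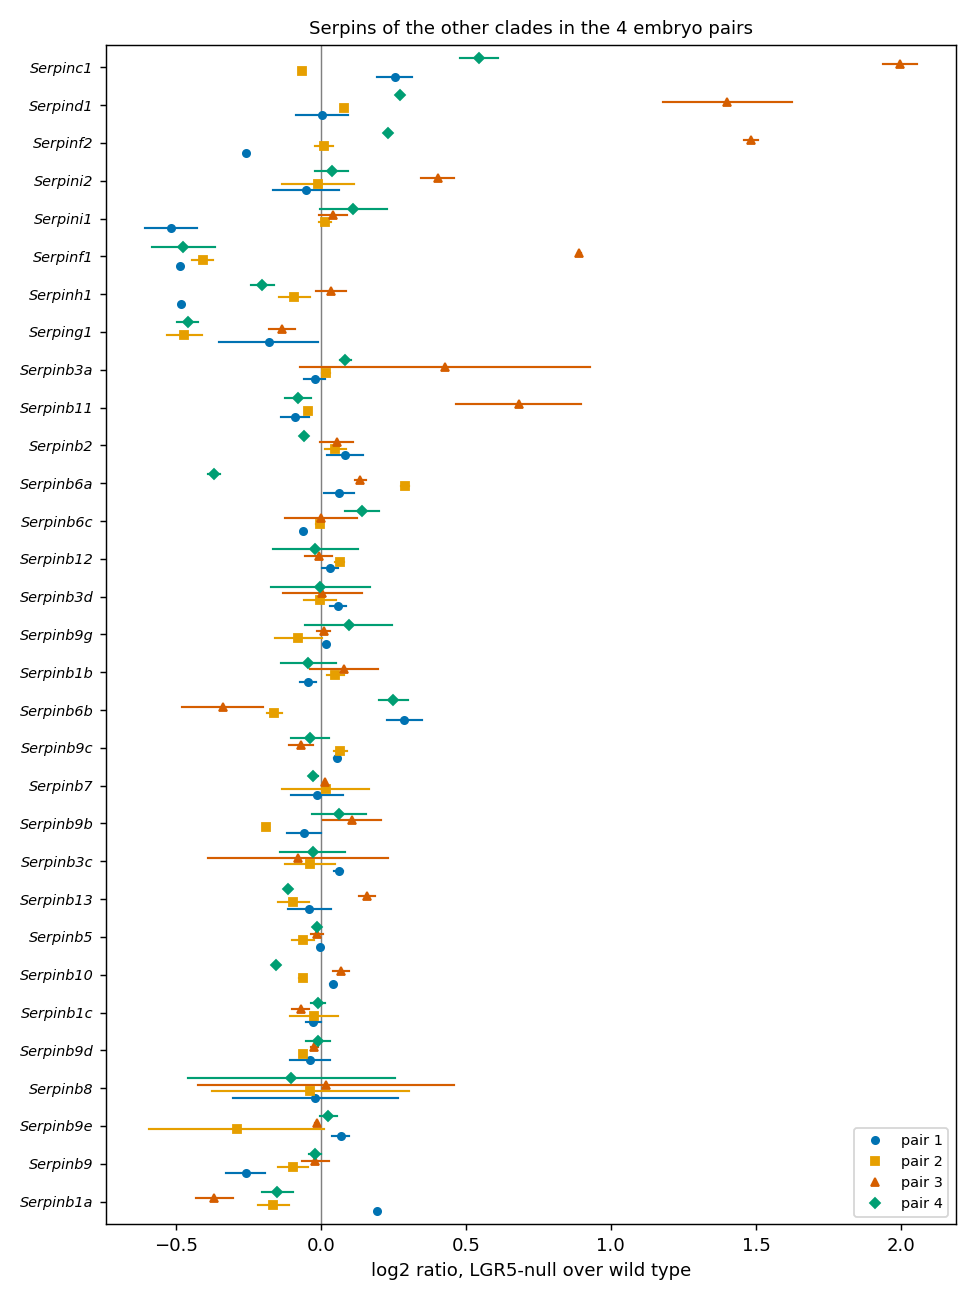
Log2 ratios of the 31 serpins of the other clades (x axis, null over wild type) in each embryo pair, clades C, D and F to I above and clade B below. A marker is the mean of the 2 arrays of a pair, which the line joins. Serpinc1, Serpind1, Serpinf2 and Serpinf1 lie far right in pair 3, and most clade B genes stay near 0.

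Serpinf1 and Serpinh1 do not act as protease inhibitors. Serpinf1, pigment epithelium-derived factor, an inhibitor of vessel growth, was at -0.48, -0.41 and -0.47 in pairs 1, 2 and 4 and at 0.89 in pair 3. The 3 negative pairs lay close together, and pair 3 stood on the other side of 0. Its mean over the 4 pairs was -0.12 ± 0.67 (SD, n = 4; limma adjusted p = 0.932), and without pair 3 it was -0.46. The list of 10 fibroblast genes had medians of -0.32, -0.17, -0.14 and -0.29 in pairs 1 to 4, below 0 in pair 3 as well. The part of fibroblast and liver RNA in the Serpinf1 values was not tested.

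Serpinh1, the chaperone HSP47 that folds procollagen, was at -0.48, -0.091, 0.034 and -0.20. Pair 1 was the lowest and pair 3 near 0, and the mean was -0.18 ± 0.22 (SD, n = 4; limma adjusted p = 0.806). Its clients and their modifying enzymes, 16 genes of fibrillar collagens, hydroxylases and partners, had pair medians of -0.22, -0.088, -0.11 and -0.14. Of these 16, 14 had a mean below 0, as did 7557 of the 15123 named genes. In all 4 pairs 9 of the 16 were below 0, against 8.28% of all genes, and 0 passed the test over all genes. Col5a2 stood at -0.30 ± 0.19, Col3a1 at -0.28 ± 0.15 and P4ha2, a prolyl hydroxylase, at -0.27 ± 0.27.

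Serpini1, neuroserpin, an inhibitor of tissue plasminogen activator in the nervous system, was at -0.52 in pair 1, while pairs 2 to 4 lay between 0.015 and 0.11. Plat, which encodes tissue plasminogen activator, was at 0.029, -0.55, -0.19 and -0.74 in pairs 1 to 4, so pair 1 was low for the inhibitor and not for the protease. Serpini2, a serpin known from pancreas, was at -0.051, -0.0090, 0.40 and 0.038. The 10 measured exocrine pancreas genes had medians of -0.037, -0.052, 1.55 and 0.097, so both were highest in pair 3, and the part of pancreas RNA was not tested.

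Clade B serpins shut off proteases that reach the inside of a cell, such as granzymes and cathepsins, and their mean ratios had a median size, regardless of sign, of 0.022. The same value was 0.042 over all genes, 0.17 in clade A and 0.25 in clades C, D and F to I, and these differences were not tested. Clade B gene means ran from -0.12 to 0.13, with a median of -0.0016, and 16 of the 23 stayed within 0.2 of 0 in every pair, as did 59.0% of all genes. None was above 0 in all 4 pairs, where 7.31% of all genes were, and 4 of the 23, or 17.4%, were below 0 in all 4, where 8.28% of all genes were. Serpinb9, the granzyme B inhibitor, was at -0.26, -0.097, -0.019 and -0.020, a mean of -0.099 ± 0.11 (SD, n = 4; limma adjusted p = 0.816). The other 3 lay closer to 0, with Serpinb1c at -0.032 ± 0.026, Serpinb9d at -0.032 ± 0.023 and Serpinb5, maspin, at -0.022 ± 0.026. For each of these 4 genes the 2 arrays differed in sign in some pairs, as for Serpinb1c at 0.058 and -0.105 in pair 2. The signs of their pair means are therefore uncertain.

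The means of probes of the same gene over the 4 pairs disagreed in sign for 3 serpins, Serpinb6a, Serpinb3a and Serpina12. The Serpinb10 probes had means of the same sign but opposite signs in pairs 1, 3 and 4. One Serpinb6a probe was at -0.0085, 0.56, 0.37 and -0.66 in pairs 1 to 4, with both arrays on the same side of 0 in pairs 2, 3 and 4, while the other stayed between -0.10 and 0.13. Serpinb3a, a relative of the human squamous cell carcinoma antigens, had 1 probe at 1.90 on 1 array of pair 3 and -0.061 on the other, and its second probe read -0.042 and -0.083 there. That single array lifted the Serpinb3a value of pair 3 to 0.43. The Serpina12 probes had means of -0.036 and 0.011, both within their spread of 0.

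Between the embryo pairs, 22 of the 44 serpins differed by more than the error between arrays (limma moderated F-test with a dye term, adjusted p under 0.05), where 30.9% of all genes did. That error is technical, so variation between embryos is enough to pass, and the test says nothing on genotype. By clade the counts were 9 of 13 in clade A, 5 of 23 in clade B and 8 of 8 in clades C, D and F to I. The largest ranges were those of the Serpina1 copies, 2.68 to 3.26, followed by Serpinc1 at 2.06, Serpinf2 at 1.74, Serpina6 at 1.59 and Serpind1 at 1.40. The adjusted p of the F-test was 1.32e-05 for Serpina1d and 3.49e-05 for Serpinc1. Serpina10 passed too (0.00604), with a range of 0.67, and Serping1 with a range of 0.34 (0.0322). Without pair 3 the count was 17 of 44, where 32.6% of all genes were called. Those that dropped out were Serpina11, Serpinb11, Serpind1, Serpinf1 and Serpini2.

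By position in the RefSeq table, 12 of the 13 clade A genes lie in a single cluster on chromosome 12, where Serpina10 and Serpina6 sit side by side apart from a pseudogene. The neighbours Serpina10 and Serpina6 were both above 0 in every pair. Pair 1 was the highest for Serpina10 and pair 3 for Serpina6. The Serpina1 copies follow farther along the cluster, with ratios of the opposite sign in pairs 1 and 2. Serpina9 and Serpina12 lie side by side beyond them and stayed near 0. The clade B genes form clusters on chromosomes 1 and 13, and the serpins on those chromosomes had median mean ratios of 0.0068 and -0.0068.

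**Figure D3:**
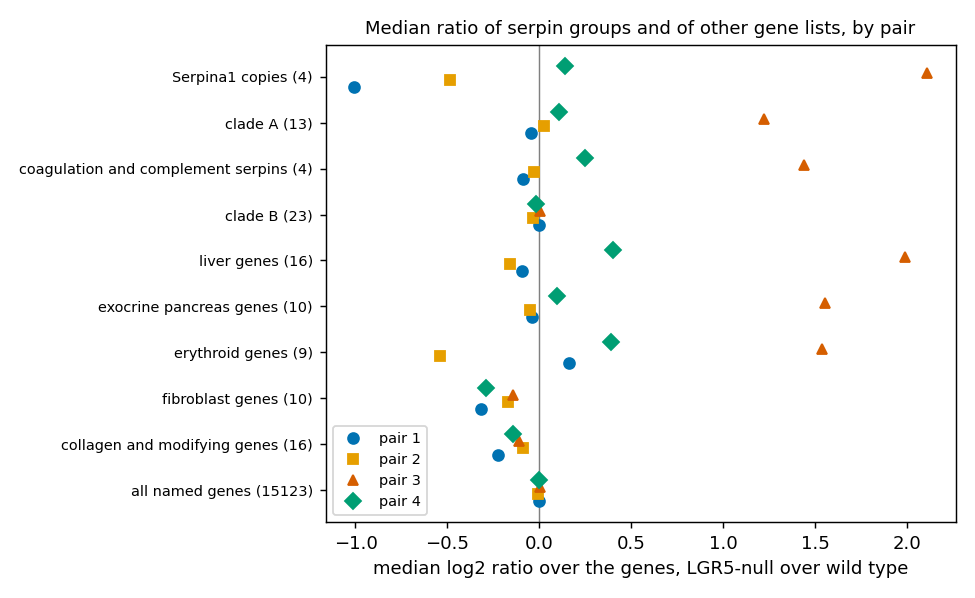
Median log2 ratio (x axis, null over wild type) of serpin groups and of other gene lists in each embryo pair, with the number of genes in parentheses. Clade A includes the Serpina1 copies. In pair 3 the Serpina1 copies, the clotting and complement serpins and the liver, pancreas and erythroid lists all lie above 1, and clade B and all named genes lie near 0.

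Lists of the proteases that serpins control, some of them with cofactors, receptors and other partners, gave no calls either. They held 9 genes of plasminogen activation, 15 of coagulation, 19 of leukocyte and other proteases, 9 pancreatic proteases and 11 cysteine cathepsins. Of these genes, 0 passed the test over all genes. Tfpi, itself an inhibitor, was counted in the coagulation list and also among the inhibitors of other families below. Coagulation genes had a median mean of 0.10, and 13 of 15 had a mean above 0, as did 7565 of the 15123 named genes. In pair 2 only 2 of the 15 were above 0, and 0 were above 0 in all 4 pairs. Without pair 3 the median was 0.040. F2, prothrombin, the target of antithrombin, was at -0.13, -0.16, 2.04 and 0.36 in pairs 1 to 4, and F13b stood at 0.49 ± 0.77 (SD, n = 4). Plg, plasminogen, whose active form Serpinf2 blocks, stood at 0.48 ± 0.81. Pancreatic proteases had a median mean of 0.37 and were highest in pair 3, at a median of 1.40, with Ctrb1 at 0.97 ± 1.33. Mcpt4, a mast cell chymase, was above 0 in all 4 pairs, at 0.38, 0.54, 0.23 and 0.098, and Klk1, a tissue kallikrein, below 0 in all 4, at -1.71, -0.26, -0.20 and -0.80. The limma adjusted p was 0.727 for Mcpt4 and 0.767 for Klk1. Mcpt4 stood alone among 6 mast cell markers, of which the other 5 had a mean below 0. The median mean of the 6 was -0.083.

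Inhibitors of other families were compared as well, 27 genes of TIMP, Kunitz, Kazal, cystatin, macroglobulin and other types, of which 0 passed the test. Their median mean ratio was 0.048. In all 4 pairs 6 of the 27, or 22.2%, were below 0, where 8.28% of all genes were, and 1 was above 0. The 6 were Timp1, Timp2, Timp3, Cst3, Pi15 and Pi16. Itih2, Ambp and A2m, plasma inhibitors of liver, stood at 0.65 ± 1.17, 0.64 ± 1.00 and 0.58 ± 1.43 (SD, n = 4). A2m was at -0.88, 0.014, 2.49 and 0.70 in pairs 1 to 4, low in pair 1 and high in pair 3 as were the Serpina1 copies.

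Serpinb8 showed a dye effect, and a difference between null and wild-type embryos was not called (limma adjusted p = 0.850). With the null sample in Cy5 its ratios were -0.30, -0.38, -0.42 and -0.46 in pairs 1 to 4, and with the null sample in Cy3 they were 0.27, 0.30, 0.46 and 0.26. The sign followed the dye in every pair, and the pair means lay between -0.10 and 0.019. It was the single serpin with a dye term past the threshold (limma adjusted p = 0.0239), where 1.53% of all genes were called, a test added after its values were seen. Arrays of a pair also lay apart for some other serpins, as in pair 3 for Serpinb11, at 0.466 and 0.898, and in pair 4 for Serpina11, at 0.568 and 0.124.

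**Figure D4:**
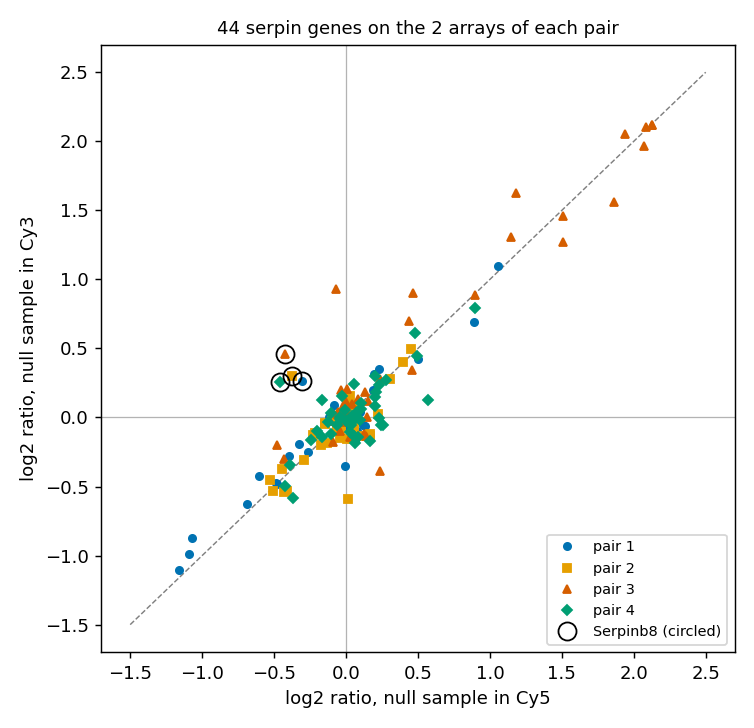
Log2 ratios of the 44 serpin genes on the array of each pair with the null sample in Cy5 (x axis) and on the array with it in Cy3 (y axis). Each marker is 1 gene in 1 pair, and the dashed line marks equal values. Serpinb8, circled, lies off the line in all 4 pairs, and the Serpina1 copies lie on it at both ends.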

How the data were processed

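Per the labels, ileum RNA was amplified with an aminoallyl nucleotide, labelled with Cy5 or Cy3, and the null and wild-type samples of a pair shared a MEEBO array. The authors deposited 1 log ratio per probe and array, taken here as log2. The sources used here give neither its base, numerator, background correction and normalization nor any intensities, so dim probes could not be filtered. The table holds 38467 probes and 0 missing values. Of these, 22941 have 1 symbol in the platform annotation, 0 have several and 15526 are unnamed, and 0 symbols changed in RefSeq. Array medians ran from -0.002 to 0.002 and array SDs from 0.144 to 0.326. The 2 arrays of a pair correlated at r = 0.309 to 0.779 across probes although their dyes were exchanged, so no sign was turned here. The number of embryo pairs limits the precision.

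Probes of a gene and arrays of a pair were averaged, and means over 4 pairs were tested against 0, 2-sided, by an intercept model in limma 3.58.1 under R 4.3.3. P-values were adjusted over 15123 genes (Benjamini-Hochberg). A moderated F-test on the 8 single arrays compared the pairs, with the dye as a term. Both tests were checked on simulated data. Members and lists were chosen with earlier results of these data known. Named were all clade A members, up to 8 other serpins in each direction with 1 sign in all pairs, up to 8 with the largest range past the F-test, the single-copy serpins of known role, genes whose probes differ in sign, and up to 3 members of each list by size of mean. Serpinb8, Serpinb10, Serpinb11, Alb and C1ra were named after their values were seen, and Proz, F10 and Plat as partners of a serpin. Alternatives left out each pair, both outlying pairs or a dye orientation, scaled or centred arrays, took the median of probes or single probes, or used a random block or an ordinary test.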

Additional observations from a re-analysis of the deposited data

Results flagged for a closer look

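In 9 of 66 items examined, the 44 serpins and 22 medians, 1 pair stood far from the other 3. For independent items chance does so in about 1 of 20, or 3.3 of 66, and these items overlap. Pair 3 was the one apart in 6. Serpinf1 stood at 0.89 there against -0.48 to -0.41 elsewhere, and Serpinb11, a clade B member, at 0.68 against -0.089 to -0.045. The median of the clade A serpins was 1.22 against -0.048 to 0.11, and without the Serpina1 copies it was 0.25 in pair 3. The median of the pancreatic proteases was 1.40, that of the exocrine pancreas markers 1.55, and that of the other protease inhibitors 0.081, against at most 0.13, 0.097 and -0.045 in the other pairs. Pair 1 was apart in the other 3 items. Serpini1 stood at -0.52 against 0.015 to 0.11, Serpinb3d, of clade B, at 0.059 against -0.0020 to 0.0055, and the median of the leukocyte markers at 0.15 against 0.017 to 0.039. The Serpinb3d arrays of pair 4 read 0.17 and -0.172, and its pairs did not differ by the F-test (limma adjusted p = 0.898).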

How the results depend on the processing

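The count of 0 serpins past the threshold in the test of null against wild type was 1 in the random-block fit of single arrays, Serpina10, and 0 under the 12 other alternatives. The count between pairs was 22, where 30.9% of all genes were called. It was 16 without pair 1 (7.41% of all genes), 20 without pair 2 (20.7%), 17 without pair 3 (32.6%), 19 without pair 4 (26.7%) and 19 without the dye term (20.5%). It was 22 with scaled arrays (28.8%), with the median of probes (31.1%) and on single probes (28.9% of probes). The clade A median of 0.17 ran from -0.027 without pair 3 to 0.56 without pair 1, and was -0.0058 without pairs 1 and 3. Arrays scaled to a common spread gave 0.13. An alternative added after the data were seen, 1 value per multigene family, gave 0.21, whereas clade A without the Serpina1 copies had a median of 0.074. The other-clade median stayed between -0.021 and 0.0021. The difference of both medians, 0.17, ran from -0.015 without pair 3 to 0.56 without pair 1. With 1 pair left out, Serpina10 ranged from 0.48 without pair 1 to 0.70 without pair 2, and it was 0.43 without pairs 1 and 3. Means of serpins that did not pass the test moved with single pairs. Without pair 3 Serpina1a went from 0.21 to -0.43, Serpina1d from 0.14 to -0.52, Serpinf2 from 0.37 to -0.0044 and Serpinf1 from -0.12 to -0.46. On the arrays of 1 dye orientation Serpina9 was 0.044 and -0.080 and Serpinb1c 0.0085 and -0.072. Leaving out near-identical copies by protein, background correction and a filter on dim probes were not run. No separate paired analysis was run, because each ratio already holds the 2 embryos of a pair on 1 array and is the paired comparison.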

Other observations

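Neutrophil granule proteases, which clade A and clade B serpins inhibit, were uneven between the pairs. Elane, the elastase that alpha-1-antitrypsin traps, was at 0.065, -0.081, 1.73 and -0.57 in pairs 1 to 4. Prtn3 was at -0.030, -0.26, 1.88 and -0.42, and Ctsg, cathepsin G, at -0.017, -0.0035, 1.49 and -0.50. Pair 3 was high and pair 4 low for all of them. The 9 measured erythroid markers had medians of 0.16, -0.54, 1.54 and 0.39 in the same pairs, and the 11 leukocyte markers 0.15, 0.034, 0.039 and 0.017. These genes were picked after their values were seen.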
